A study of Arabidopsis thaliana with 144 samples.

Results

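Low-phosphate seedlings of 2 Arabidopsis thaliana mutants were compared directly: phf1, impaired in phosphate (Pi) uptake, and phr1phl1, impaired in Pi starvation signalling. The members were all RNA-seq libraries labelled with either genotype and low Pi, 24 of phf1 and 24 of phr1phl1, which make up 12 of the study's 36 groups of 4 libraries. Seedlings of both genotypes first spent 7 days on a pre-treatment medium, which held Pi at 5 µM (-P) or at 1 mM (+P), or else phosphite at 1 mM (+Phi). Phosphite enters plants through Pi transporters and cannot replace Pi in metabolism. All seedlings were then kept for 12 days at 50 µM Pi without sucrose, either alone (axenic) or with a bacterial synthetic community (SynCom). Each of the 12 groups of genotype, pre-treatment and bacteria had 4 whole-seedling libraries, 2 from each of 2 independent experiments, A and B. The labels name no mutant alleles, and they do not say how many seedlings were pooled in a library.

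PHR1 and its relative PHL1 are MYB coiled-coil transcription factors that bind the P1BS element, GNATATNC, in promoters of Pi starvation genes. PHF1 is a protein of the endoplasmic reticulum that PHT1 Pi transporters need to reach the plasma membrane, so phf1 plants take up little Pi but keep both transcription factors. In wild-type plants, Pi starvation raises transporters, secreted phosphatases and enzymes that replace phospholipids with galactolipids and sulfolipids. Levels of a gene are given as CPM, its share of a library's counts on the usual CPM scale after TMM scaling of the libraries. Differences are log2 fold changes of phf1 over phr1phl1 with their standard error, so that a positive value is a higher level in phf1. They compare genotypes within the 12 blocks of experiment, bacteria and pre-treatment, each with 2 libraries of either genotype. A gene was called at an adjusted p under 0.05 in edgeR's quasi-likelihood test, with Benjamini-Hochberg adjustment over 18668 genes tested.

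The targeted transcripts themselves differed between the genotypes. PHR1 ran from 38.8 through a median of 54.2 to 78.2 CPM in phf1 and from 11.4 through a median of 29.6 to 38.3 CPM in phr1phl1. All 24 phf1 libraries lay above all 24 phr1phl1 libraries, and the difference was 1.01 ± 0.09 (adjusted p = 1.38e-11). PHL1 went the other way and ran from 9.22 through a median of 12.4 to 19.5 CPM in phf1 and from 16.5 through a median of 57.1 to 175 CPM in phr1phl1. Both phf1 libraries lay below both phr1phl1 libraries in each of the 12 blocks, and the difference was -2.41 ± 0.14 (adjusted p = 2.49e-17), so the libraries labelled phr1phl1 held more PHL1 reads, not fewer. Reads from a disrupted gene were not told apart from reads of an intact one. PHF1 ran from 8.41 through a median of 22.2 to 61.2 CPM in phf1 and from 6.51 through a median of 18 to 42.4 CPM in phr1phl1, overlapping widely, and was slightly higher in phf1 at 0.41 ± 0.10 (adjusted p = 0.00212), so its count is no check of that genotype. The ratio of PHR1 to PHL1 counts lay between 3.16 and 6.77 in phf1 and between 0.159 and 1.07 in phr1phl1, which separates the 48 libraries by their labels.

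Total counts per library ran from 720256 through a median of 3811182 to 7710839. In a principal component analysis of the 48 libraries, experiment accounted for 77.1% of the spread along component 1, which held 27.8% of all variance. Genotype accounted for 46.5% of the spread along component 2, which held 16.6%. The shallowest library, a phr1phl1 library of experiment A pre-treated with -P and given SynCom, stood apart on Pi starvation genes. Of 45 members of the 4 Pi lists called higher in phf1, it was the highest phr1phl1 library for 28, and the next library was the highest for 4. Its SPX3 level was 27.2 CPM against at most 5.17 CPM in the other phr1phl1 libraries, while its PHO2, PHR1 and PHL1 levels lay within their range.

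Across all genes tested, 3409 were called higher in phf1 (18.3%) and 3032 lower (16.2%). The higher calls were larger: 610 passed 2-fold against 54 of the lower calls. Together these are 6441 genes, 34.5% of those tested, and 6450 were called without the shallowest library. The median difference over all genes was -0.01. Both phf1 libraries lay above both phr1phl1 libraries in all 12 blocks for 81 genes (0.434%), and 18 of these belong to the 62 tested members of the 4 Pi lists. The reverse held for 6 genes (0.0321%), among them PHO2 and PHL1.

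The regulators of Pi sensing were called in both directions: of 13 members, all tested, 6 were higher in phf1 and 6 lower, with a median of 0.14. The calls were 7 higher and 6 lower within experiment A, 5 and 3 within B, and 5 and 2 without bacteria. Of all genes tested, 17.7% were higher and 15.5% lower within A, 8.5% and 7.59% within B, and 7.68% and 3.66% without bacteria. Leaving out the A1 libraries ended the lower calls of SPX4 (adjusted p = 0.208), PHL3 (adjusted p = 0.125) and AT3G01310 (adjusted p = 0.315) in edgeR. Those higher included AT4, IPS1, SPX1 and SPX3, and those lower included PHO2 and NLA, whose products act in the removal of Pi transporters. AT4 and IPS1 are non-coding RNAs that sequester miR399, the microRNA that cleaves the PHO2 transcript. AT4 ran from 472 through a median of 932 to 3503 CPM in phf1 and from 26.1 through a median of 189 to 386 CPM in phr1phl1. The genotypes did not overlap, and AT4 was 2.84 ± 0.16 higher (adjusted p = 1.24e-17). IPS1 ran from 7.26 through a median of 22.7 to 230.1 CPM in phf1 and from 0.262 through a median of 3.72 to 51.4 CPM in phr1phl1, with overlap between single libraries but none within any block, and differed by 2.85 ± 0.29 (adjusted p = 2.44e-10).

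SPX proteins bind PHR1 when inositol pyrophosphates signal sufficient Pi. SPX1 ran from 51.7 through a median of 312 to 1234 CPM in phf1 and from 23.3 through a median of 76.2 to 215 CPM in phr1phl1 and was 2.11 ± 0.13 higher in phf1 (adjusted p = 3.26e-16), above in each of the 12 blocks. SPX3 ran from 0.32 through a median of 27.5 to 253 CPM in phf1 and from 0 through a median of 0.81 to 27.2 CPM in phr1phl1. Outside the shallowest library its phr1phl1 level was at most 5.17 CPM. The difference of 4.81 ± 0.29 (adjusted p = 8.77e-17) was the widest of the SPX genes in these lists, and it was 5.06 ± 0.29 without that library. SPX2 differed by only 0.65, and SPX4 by -0.28. SPX4 is known as the member whose transcript is not induced by Pi starvation.

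PHO2, a ubiquitin-conjugating enzyme that acts on the Pi exporter PHO1 and on PHT1 proteins, showed the smallest adjusted p of all genes. It ran from 71.5 through a median of 141 to 217 CPM in phf1 and from 543 through a median of 814 to 1521 CPM in phr1phl1. No phf1 library reached the lowest phr1phl1 library, and PHO2 was the only gene tested with all 24 phf1 libraries below all 24 phr1phl1 libraries (0.00536%). The difference was -2.71 ± 0.11 (adjusted p = 2.79e-22), with -3.11 in experiment A and -2.3 in experiment B. NLA, a ubiquitin ligase that acts on PHT1 proteins, ran from 9.38 through a median of 16.1 to 53.9 CPM in phf1 and from 15.6 through a median of 34.2 to 72 CPM in phr1phl1 and differed by -0.83 ± 0.11 (adjusted p = 1.61e-07). Its axenic phf1 libraries of experiment B lay in the range of phr1phl1, and the difference was -1.24 in A and -0.44 in B.

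Wild-type Col-0 libraries at low Pi give a reference for these levels, set on a scale over all libraries of the study and given without a test. Of the 24, 1 library went against its label: an axenic Col-0 library pre-treated with +Phi in experiment A had a PHR1 to PHL1 ratio of 0.373, within the range of phr1phl1. It held 68.6 CPM of PHL1 and 776 CPM of PHO2, against at most 19.3 CPM and 201 CPM in the other 11 axenic Col-0 libraries, whose ratios lay between 3.1 and 6.95. Median PHO2 with SynCom was 145 CPM in Col-0, 137 CPM in phf1 and 934 CPM in phr1phl1. Median AT4 with SynCom was 1082 CPM in Col-0, 1115 CPM in phf1 and 202 CPM in phr1phl1. Without bacteria, median AT4 was 97.1 CPM in Col-0 (110.3 CPM without the library that went against its label), 657 CPM in phf1 and 119 CPM in phr1phl1. Median PHO2 without bacteria was 171 CPM in Col-0 (159 CPM without that library), where PHO2 ran from 80.6 to 218 CPM in phf1 and from 578 to 981 CPM in phr1phl1. The Col-0 median of PHO2 lay within the phf1 range in both conditions, while that of AT4 lay near phf1 with SynCom and near phr1phl1 without bacteria.

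**Figure D1:**
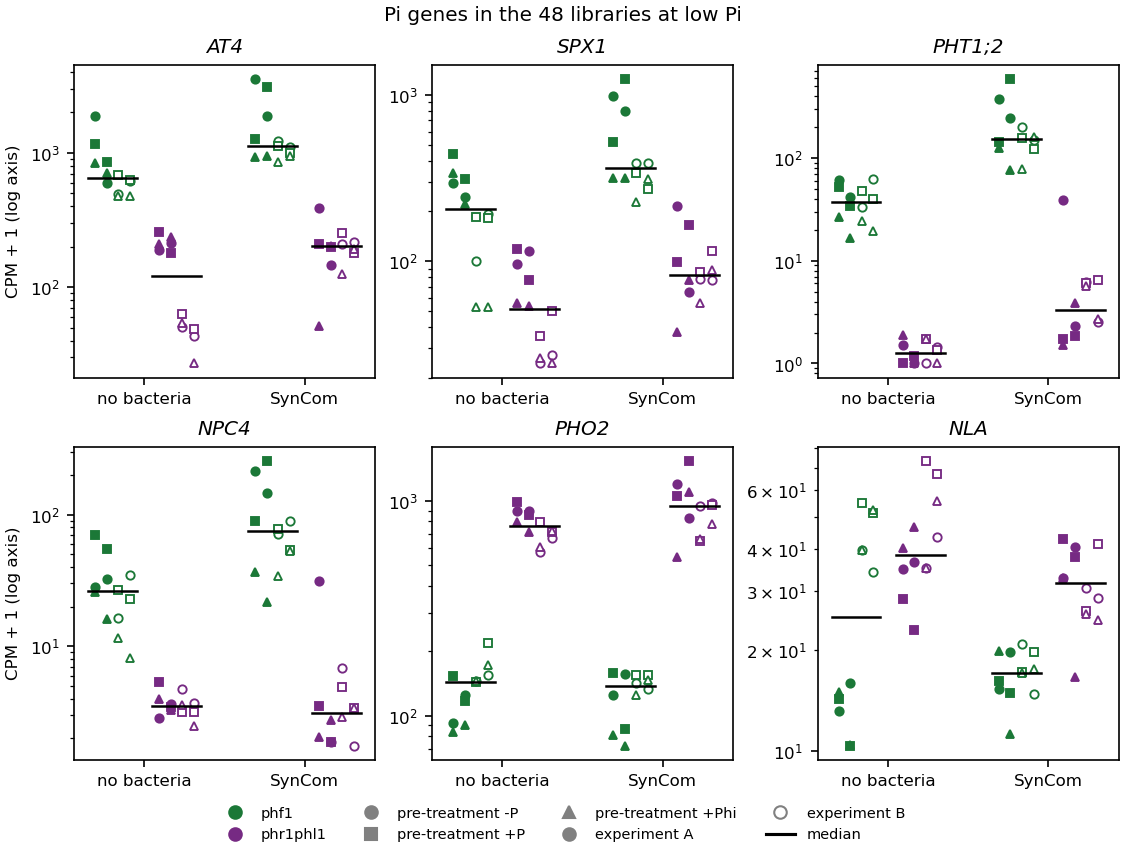
CPM plus 1 on a log axis for 6 Pi genes in the 48 libraries, by genotype (colour), bacteria (x axis), pre-treatment (symbol) and experiment (filled A, open B), with the median of each 12 libraries as a line. AT4 and PHO2 separate the genotypes completely in opposite directions, and a single phr1phl1 library with SynCom stands above the others for PHT1;2 and NPC4.

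Windows of 300 bases before the annotated gene start were cut from the RefSeq genome, assembly TAIR10.1, and searched for the P1BS letters GNATATNC. Shown are 4 genes higher in phf1, chosen as examples because their windows hold the motif, and PHO2 as the gene with the smallest adjusted p. Matches are in capitals. The windows of OCT1, PHT1;9 and PHT1;8, which were also far higher in phf1, hold no match. The motif reads the same on both strands. The AT4 window lies at chr5:894282-894581 on the plus strand and that of SPX3 at chr2:18606110-18606409 on the plus strand. The window of PHT1;2 lies at chr5:17415398-17415697 on the plus strand, that of NPC4 at chr3:845097-845396 on the minus strand and that of PHO2 at chr2:14283114-14283413 on the minus strand.
AT4: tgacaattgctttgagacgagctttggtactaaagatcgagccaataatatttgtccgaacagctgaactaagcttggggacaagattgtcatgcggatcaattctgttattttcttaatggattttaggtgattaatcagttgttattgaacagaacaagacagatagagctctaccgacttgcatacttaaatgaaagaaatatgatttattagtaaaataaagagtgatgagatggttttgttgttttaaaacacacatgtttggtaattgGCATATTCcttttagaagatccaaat
SPX3: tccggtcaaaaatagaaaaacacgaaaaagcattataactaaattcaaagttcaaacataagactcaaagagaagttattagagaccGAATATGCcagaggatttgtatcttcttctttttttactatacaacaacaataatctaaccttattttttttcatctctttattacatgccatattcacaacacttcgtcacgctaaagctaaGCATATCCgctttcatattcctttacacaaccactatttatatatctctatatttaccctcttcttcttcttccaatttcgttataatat
PHT1;2: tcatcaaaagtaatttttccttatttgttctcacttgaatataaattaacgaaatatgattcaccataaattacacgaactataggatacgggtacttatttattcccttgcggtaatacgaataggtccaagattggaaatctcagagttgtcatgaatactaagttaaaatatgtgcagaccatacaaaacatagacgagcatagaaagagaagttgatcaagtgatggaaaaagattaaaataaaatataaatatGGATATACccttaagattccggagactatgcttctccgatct
NPC4: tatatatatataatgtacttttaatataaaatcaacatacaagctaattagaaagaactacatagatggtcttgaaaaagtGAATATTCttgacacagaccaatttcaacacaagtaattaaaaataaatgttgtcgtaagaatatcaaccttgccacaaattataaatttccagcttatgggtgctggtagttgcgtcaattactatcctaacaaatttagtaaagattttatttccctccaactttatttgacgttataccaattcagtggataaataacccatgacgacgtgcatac
PHO2: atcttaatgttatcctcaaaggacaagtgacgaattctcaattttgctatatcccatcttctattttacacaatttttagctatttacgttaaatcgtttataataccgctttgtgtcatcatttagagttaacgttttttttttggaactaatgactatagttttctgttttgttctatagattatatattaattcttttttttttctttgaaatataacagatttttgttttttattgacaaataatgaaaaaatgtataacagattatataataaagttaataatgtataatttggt

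The match in AT4 starts 26 bases before the gene start, that in PHT1;2 42 bases before it and that in NPC4 219 bases before it. SPX3 holds 2 matches, at 213 and 90 bases. The PHO2 window holds none, which says only that these letters do not occur in it. Of the windows of all genes tested, 6.63% hold the motif. The share was 9.31% for genes called higher in phf1 and 13.5% for those at least 2-fold higher, against 5.78% for genes called lower. It was 19.8% for the 81 genes above in all 12 blocks. Among the Pi lists, windows of 8 of 19 scavenging genes, 7 of 19 lipid genes, 3 of 13 sensing genes and 2 of 15 transport genes hold the motif. So do those of 4 of 9 genes of PEP carboxylase and starch and 4 of 11 transcription factors linked to Pi starvation. Other lists varied, with 5 of 30 jasmonate, 3 of 13 cell division, 2 of 9 suberin and 2 of 12 senescence genes. Matches were found for 1 of 23 photosynthesis, 0 of 10 strigolactone and 0 of 28 salicylic acid genes. A match describes the sequence and does not show that either factor binds there.

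Pi transporters were higher in phf1 almost without exception. Of 15 listed genes 14 were tested, 13 were called higher and 1 lower, and their median difference was 2.38. PHT1 genes encode the high-affinity Pi importers of the plasma membrane, whose traffic depends on PHF1. PHT1;1 ran from 95.2 through a median of 256 to 814 CPM in phf1 and from 19 through a median of 56.6 to 138 CPM in phr1phl1 and differed by 2.22 ± 0.13 (adjusted p = 3.74e-17). PHT1;2 ran from 15.7 through a median of 68.5 to 578 CPM in phf1 and from 0 through a median of 0.745 to 37.8 CPM in phr1phl1 and differed by 5.83 ± 0.28 (adjusted p = 1.09e-19). The highest phr1phl1 value is again that of the shallowest library, and the next was 5.47 CPM, under every phf1 library. Without that library the difference was 6.1 ± 0.26. PHT1;1, PHT1;2 and PHT1;3 are near-identical copies, so how reads were divided among them is uncertain.

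The more distinct members of the family were higher in phf1 too. PHT1;4, a major importer at low Pi, ran from 18.5 through a median of 182 to 842 CPM in phf1 and from 13.1 through a median of 44.2 to 201 CPM in phr1phl1 and differed by 2.03 ± 0.17 (adjusted p = 1.63e-12). PHT1;9, which acts in the root, ran from 5.01 through a median of 13.7 to 81.8 CPM in phf1 and from 0.19 through a median of 1.35 to 4.54 CPM in phr1phl1 and did not overlap between the genotypes, with a difference of 3.43 ± 0.19 (adjusted p = 7.73e-18). PHT1;8 and PHT1;7 were at 0 in at least 12 of the 24 phr1phl1 libraries, so that their fitted differences of 6.0 and 5.39 depend on the prior count. PHO1;H1, which loads Pi into the xylem together with PHO1, ran from 0.96 through a median of 35.7 to 131 CPM in phf1 and from 0.869 through a median of 4.53 to 22.7 CPM in phr1phl1 and differed by 2.94 ± 0.26 (adjusted p = 1.34e-11). PHO1 itself differed by only 0.46 ± 0.09 (adjusted p = 6.62e-05).

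The glycerol-3-phosphate permease homologue G3Pp1 ran from 46.3 through a median of 266 to 737 CPM in phf1 and from 13 through a median of 99.1 to 247 CPM in phr1phl1 and differed by 1.59 ± 0.11 (adjusted p = 1.81e-14). The list also held loci that RefSeq describes as Major Facilitator Superfamily proteins with an SPX domain. AT1G63010 was higher in phf1 by 0.61 ± 0.07. AT4G22990 was the single transport gene called lower, at -0.36 ± 0.10 (adjusted p = 0.00722). That lower call came with -0.70 in experiment A and -0.06 in B.

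Enzymes that release Pi from organic compounds outside and inside the cell were higher in phf1 in 17 of 19 tested genes, with none lower and a median of 2.46. The other two were not called. OCT1, an organic cation transporter induced by Pi starvation, ran from 31.4 through a median of 98.8 to 529.7 CPM in phf1 and from 0.343 through a median of 1.54 to 56 CPM in phr1phl1. The difference was 5.28 ± 0.29 (adjusted p = 5.23e-18). Without the shallowest library the highest phr1phl1 value was 9.67 CPM, below every phf1 library, and the difference was 5.51 ± 0.28. The pyrophosphatase PPsPase1 ran from 4.48 through a median of 193 to 1364 CPM in phf1 and from 1.5 through a median of 24.1 to 117 CPM in phr1phl1 and was above in each of the 12 blocks, at 3.14 ± 0.23 (adjusted p = 3.03e-14). PECP1, a phosphatase of phosphoethanolamine and phosphocholine, ran from 5.05 through a median of 108 to 1069 CPM in phf1 and from 0.724 through a median of 6.96 to 92.3 CPM in phr1phl1 and differed by 3.97 ± 0.27 (adjusted p = 4.20e-15).

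The purple acid phosphatases, which hydrolyse phosphate esters, ranged widely. PAP17 ran from 35.7 through a median of 211 to 888 CPM in phf1 and from 10.5 through a median of 89.6 to 191 CPM in phr1phl1 and differed by 1.53 ± 0.13 (adjusted p = 5.88e-12). PAP22 differed by 3.11, PAP7 by 2.46 and PAP24 by 3.51. The secreted PAP12 and PAP10 differed less, by 0.87 and 0.88, and the vacuolar PAP26, which is abundant whether or not Pi is supplied, by 0.19. Among ribonucleases, the induced RNS1 ran from 11.3 through a median of 29.6 to 109 CPM in phf1 and from 0 through a median of 3.65 to 13.9 CPM in phr1phl1 and differed by 2.8 ± 0.25 (adjusted p = 8.65e-12), and RNS2 differed by 0.36.

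**Figure D2:**
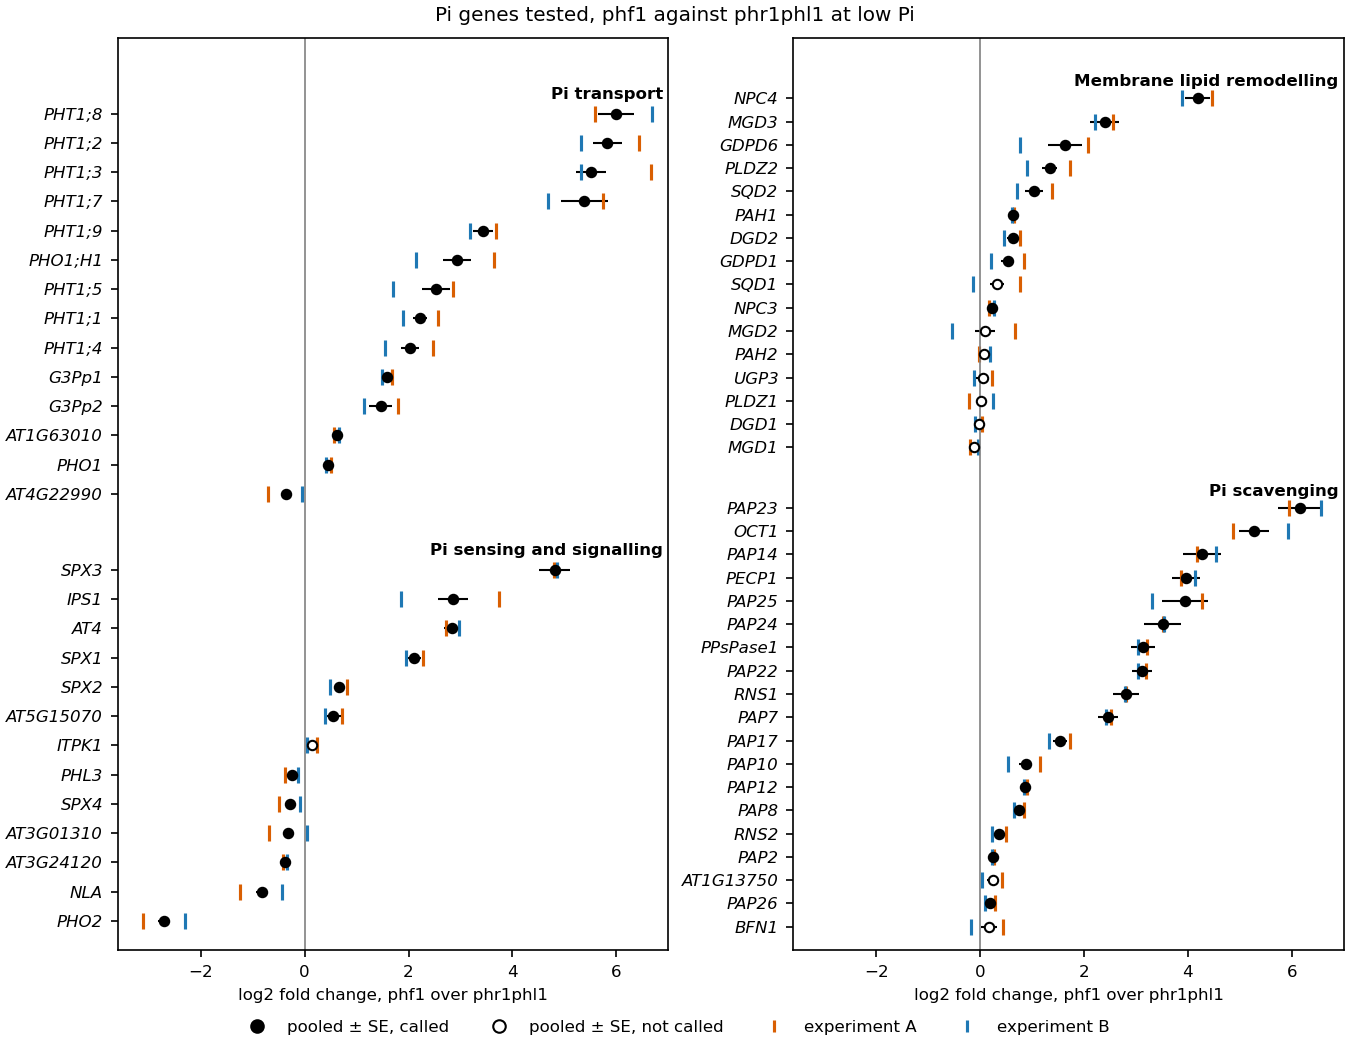
Log2 fold change of phf1 over phr1phl1 for every tested gene of the 4 Pi lists, with the pooled value and its SE (black, filled where called) and the values within experiments A (orange) and B (blue). Transport and scavenging genes lie almost all to the right of 0, while the sensing list runs from PHO2 at -2.71 to SPX3 at 4.81.

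Lipid remodelling differed in part: 9 of 16 tested genes were higher in phf1, none was lower, and the median was 0.43. Those higher included NPC4, MGD3, PLDZ2 and SQD2, known as genes induced by Pi starvation. NPC4, a phospholipase C that breaks down phosphatidylcholine, ran from 7.15 through a median of 34.7 to 252 CPM in phf1 and from 0.766 through a median of 2.4 to 30.3 CPM in phr1phl1 and differed by 4.19 ± 0.23 (adjusted p = 8.34e-18). MGD3, a synthase of monogalactosyldiacylglycerol, ran from 2.1 through a median of 54.6 to 391 CPM in phf1 and from 2.66 through a median of 10.7 to 43.9 CPM in phr1phl1 and differed by 2.4 ± 0.28 (adjusted p = 1.27e-08). PLDZ2, a phospholipase D, differed by 1.33, and SQD2, the last enzyme of sulfolipid synthesis, by 1.04. The housekeeping galactolipid synthase MGD1 was not called, at -0.12 ± 0.06 (adjusted p = 0.0999).

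Metabolic genes that spare Pi in glycolysis and starch were also higher, in 7 of 9 tested members with a median of 0.96. PPCK1, a kinase that activates PEP carboxylase, ran from 43.9 through a median of 109 to 555 CPM in phf1 and from 23.9 through a median of 42.8 to 104 CPM in phr1phl1 and differed by 1.4 ± 0.18 (adjusted p = 6.55e-08). The carboxylases PPC1 and PPC3 differed by 0.96 and 1.26. Of 11 transcription factors linked to Pi starvation 3 were higher and none lower, where 18.3% and 16.2% of all genes tested were. AT3G25790, which RefSeq describes as a myb-like transcription factor, was the one with the widest difference, at 1.76 ± 0.30 (adjusted p = 1.40e-05).

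Root markers moved with the Pi genes. Root hair genes were higher in phf1 in 15 of 16 tested members, suberin genes in 8 of 8 and Casparian strip genes in 5 of 8, with medians of 1.56, 0.74 and 0.65. RSL2, a transcription factor of root hair growth, ran from 0.626 through a median of 17.9 to 54.3 CPM in phf1 and from 0 through a median of 2.86 to 14 CPM in phr1phl1 and differed by 2.35 ± 0.20 (adjusted p = 2.73e-12). The suberin enzyme CYP86A1 ran from 26.9 through a median of 64.6 to 109 CPM in phf1 and from 11.6 through a median of 34.8 to 70.6 CPM in phr1phl1 and differed by 0.75 ± 0.11 (adjusted p = 1.32e-06). The summed level of the root hair list ran from 66.4 through 323 to 828 CPM in phf1 and from 23.2 through 95.3 to 300.2 CPM in phr1phl1.

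Shoot markers changed little: of 23 photosynthesis genes 1 was higher and 6 were lower in phf1, with a median of -0.10. Their summed level ran from 47251 through 86788 to 124002 CPM in phf1 and from 45028 through 89295 to 163965 CPM in phr1phl1, so the ranges overlapped widely. No marker list had a member at 0 counts over the 48 libraries. In whole seedlings, fewer cells of a type and less RNA per cell cannot be told apart. The part of root share in the Pi genes, and in the sulfate, nitrate and glucosinolate genes below, was not tested.

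Lists of sulfur and nitrogen metabolism differed among themselves. Glucosinolate synthesis was higher in phf1 in 22 of 23 tested genes, none was lower, and the median was 0.89. CYP79F1, which starts aliphatic glucosinolate synthesis, ran from 0 through a median of 34.4 to 75.4 CPM in phf1 and from 0 through a median of 8.99 to 46.5 CPM in phr1phl1 and differed by 1.5 ± 0.23 (adjusted p = 1.91e-06). CYP83B1 of the indole branch ran from 229.9 through a median of 616 to 1113 CPM in phf1 and from 119 through a median of 347 to 1123 CPM in phr1phl1, with wide overlap, and differed by 0.71 ± 0.08 (adjusted p = 1.65e-08). Within experiment A 22 of these genes were called higher and within B 10, where 17.7% and 8.5% of all genes tested were. The list's median was 1.24 without bacteria and 1.52 with SynCom in A, and -0.04 without bacteria and 0.85 with SynCom in B.

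Of 15 tested genes of sulfate uptake and deprivation 8 were higher and none lower. SULTR1;3, a sulfate transporter, ran from 0 through a median of 6.3 to 32.2 CPM in phf1 and from 0 through a median of 0 to 4.54 CPM in phr1phl1 and differed by 4.87 ± 0.33 (adjusted p = 1.10e-14), a value that depends on the prior count. APR1, which reduces activated sulfate, differed by 1.4. The nitrate list was split: among 10 genes of nitrate transport and reduction 4 were higher and 3 lower, with a median of 0.13. The transporter NRT2.1 was higher by 1.33 ± 0.14 and the nitrate reductase NIA1 lower, at -0.99 ± 0.18. Genes of abscisic acid and cold responses were higher in 10 of 14, and those of zinc deficiency in 4 of 8. The coumarin enzyme F6'H1 differed by 1.03 and the iron-deficiency enzyme CYP82C4 by -1.71, the iron list as a whole having 2 higher and 1 lower of 21. Its calls differed between experiments, with 5 higher and 1 lower in A and 1 higher and 5 lower in B. The medians were 0.22 and -0.34, and the change between experiments was called for 3 members, against 1.76% of all genes tested.

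The other lists were counted in the same way. Of all genes tested, 18.3% were called higher and 16.2% lower, and several of these lists lay near those shares. Of 14 flavonoid genes 6 were higher and 1 lower, with the anthocyanin regulator MYB75 at 2.17 ± 0.32 (adjusted p = 1.77e-06) and the repressor MYBL2 at -0.49. MYB75 was near the floor. On the scale over all libraries of the study, its medians without bacteria were 1.46 CPM in phf1 and 0.13 CPM in phr1phl1. With SynCom they were 4.41 CPM and 0.68 CPM. Flavonoid genes called higher numbered 0 after -P, 7 after +P and 0 after +Phi, where 6.53%, 10.2% and 2.56% of all genes tested were. No change between pre-treatments was called. Without bacteria 1 flavonoid gene was called higher (7.68% of all genes tested), and with SynCom 5 were (16.4%). Of 8 strigolactone genes 4 were higher and 1 lower, with the synthesis enzyme CCD8 at 1.06. Of 7 heat shock genes none was higher and 5 were lower, and of 10 clock genes none was higher and 3 were lower. Of 12 ethylene genes 3 were higher and 1 lower, of 13 cell division genes 3 and 1, and of 3 ferritins 1 and 0. The cell division calls differed between the experiments. Experiment A gave 4, all upward (median 0.19), while experiment B gave 3, all downward (median -0.19). Of all genes tested, 17.7% were called higher in A and 7.59% lower in B. Ferritins had a median of -0.37 for A, where 1 gene was called lower. For B their median was 0.27, where 1 was called higher. The test of the change between experiments called 1 ferritin and 1 of the 13 cell division genes, against 1.76% of all genes tested.

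Large differences lay outside the lists too. AT5G17340, a putative membrane lipoprotein in RefSeq, and AT2G34210, described there as transcription elongation factor Spt5, differed by 6.46 and 6.53. Both were at 0 in at least 12 phr1phl1 libraries, so these values depend on the prior count. Among genes lower in phf1, ARP9, an actin-related protein, ran from 4.09 through a median of 9.0 to 14.4 CPM in phf1 and from 12.6 through a median of 28.8 to 42.5 CPM in phr1phl1 and differed by -1.65 ± 0.10 (adjusted p = 2.06e-16). AT1G13650, an uncharacterized protein, ran from 0.626 through a median of 2.8 to 11.2 CPM in phf1 and from 7.02 through a median of 19 to 76.2 CPM in phr1phl1 and was below in all 12 blocks, at -2.8 ± 0.19 (adjusted p = 4.36e-15). The flowering repressor FLC differed by -1.42, with -0.91 in experiment A and -2.44 in B.

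Besides PHR1, AT4 and PHT1;9, 3 genes had all 24 phf1 libraries above all 24 phr1phl1 libraries, 6 in all (0.0321%). These 3 are named because of their values. NSP3, a nitrile-specifier protein of glucosinolate breakdown, lay between 25.9 and 259.6 CPM in phf1 and between 2.38 and 21.2 CPM in phr1phl1. ChiC, a chitinase, lay between 31.7 and 238 CPM in phf1 and between 12.3 and 27.2 CPM in phr1phl1. AT5G35760 lay between 2.04 and 7.81 CPM in phf1 and between 0 and 0.725 CPM in phr1phl1.

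Bacteria changed how the genotypes differed. Without bacteria 1433 genes were higher in phf1 (7.68%) and 683 lower (3.66%), and with SynCom 3059 were higher (16.4%) and 3039 lower (16.3%). The genotype difference itself changed with SynCom for 752 genes (4.03%), becoming more positive for 194 (1.04%) and more negative for 558 (2.99%). Of the 558, 435 were above 0 in axenic seedlings and below 0 with SynCom. Within experiment A alone 20 genes passed this test, and within B alone 466. Of the axenic calls, 59.3% were also called in the same direction with SynCom, and these are 20.6% of the SynCom calls.

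Genes with the largest negative change included ABCG40, ELI3-2 and GSTU3. ABCG40, a transporter of abscisic acid, ran from 1.6 through 22.5 to 369 CPM in axenic phf1 and from 2.6 through 17.7 to 116 CPM in axenic phr1phl1. With SynCom it ran from 3.63 through 10.2 to 50.4 CPM in phf1 and from 3.45 through 24.7 to 189.9 CPM in phr1phl1. The difference went from 1.67 ± 0.51 to -1.6 ± 0.49, a change of -3.27 ± 0.71 (adjusted p = 0.00682). The genotypes overlapped with and without bacteria, and the axenic difference was 2.35 in experiment A and -0.07 in B.

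ELI3-2, a cinnamyl alcohol dehydrogenase in RefSeq, changed by -4.08 ± 0.90 (adjusted p = 0.00789), with 2.74 axenic and -1.34 with SynCom. CYP71A12, an enzyme of indolic defence compounds such as camalexin, ran from 3.79 through 58.1 to 183 CPM in axenic phf1 and from 0.501 through 19.1 to 53.3 CPM in axenic phr1phl1. With SynCom its ranges were 6.67 through 21.4 to 99.3 CPM and 6.89 through 34.4 to 72.6 CPM. Its difference changed by -1.86 ± 0.39 (adjusted p = 0.00492). The glutathione transferase GSTU3 changed by -5.54 ± 0.92 and the jasmonate-regulated JRG21 by -3.38 ± 0.82. Both genotypes overlapped widely for each of these genes.

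The salicylic acid list showed the same turn. Of its 28 genes 5 were higher and none lower in axenic phf1, and 1 was higher and 14 lower with SynCom, with medians of 0.32 and -0.47. The difference changed downwards for 6 and upwards for none. PR1, the usual marker of this hormone, ran from 0.777 through 49.6 to 325 CPM in phf1 with SynCom and from 1.54 through 383 to 1056 CPM in phr1phl1 with SynCom. It was lower in phf1 at -1.79 ± 0.57 (adjusted p = 0.0145), but its change between axenic and SynCom seedlings was not called, at -1.63 ± 0.88 (adjusted p = 0.317). PR1 varied widely among libraries of the same group.

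Immunity genes of the pattern-triggered list were 5 higher and none lower of 20 without bacteria, and 4 higher and 5 lower with SynCom. The difference changed downwards for 4 of the 20. Senescence genes were 3 higher and none lower of 11 without bacteria, and none higher and 4 lower with SynCom. SAG21 ran from 71.3 through 137 to 362 CPM in phf1 with SynCom and from 175 through 348 to 1082 CPM in phr1phl1 with SynCom. Its difference was -0.18 ± 0.14 without bacteria and -1.11 ± 0.14 with SynCom, a change of -0.92 ± 0.19 (adjusted p = 0.00499). Jasmonate genes were 14 higher and none lower of 28 without bacteria, and 5 higher and 2 lower with SynCom. The test of the change itself called 2 of the 28 jasmonate and 3 of the 11 senescence genes, all downwards. Of all genes tested, 2.99% changed downwards. The chitinase CHIB, the jasmonate list's widest difference, was higher under both conditions, at 1.92 and 2.72.

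Some Pi genes went the opposite way and differed more with SynCom. MGD3 ran from 2.1 through 25.1 to 139 CPM in axenic phf1 and from 2.72 through 11.3 to 29.1 CPM in axenic phr1phl1. With SynCom it ran from 31.4 through 93.1 to 391 CPM in phf1 and from 2.66 through 9.95 to 43.9 CPM in phr1phl1. The difference rose from 1.32 ± 0.33 to 3.31 ± 0.32, a change of 1.99 ± 0.46 (adjusted p = 0.0106). SQD2 was not called without bacteria, at 0.47 ± 0.22 (adjusted p = 0.173), and reached 1.61 ± 0.22 with SynCom, a change of 1.14 ± 0.31 (adjusted p = 0.0283).

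The phosphatase PAP24 changed by 2.66 ± 0.73 (adjusted p = 0.0301) and PAP14 by 2.53 ± 0.77 (adjusted p = 0.0497). AT4 and PHO2 changed by -0.05 and -0.35 and were not called for a change (adjusted p = 0.969 and 0.348). Over the 62 tested members of the 4 Pi lists, the change was upwards for 6 and downwards for none.

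**Figure D3:**
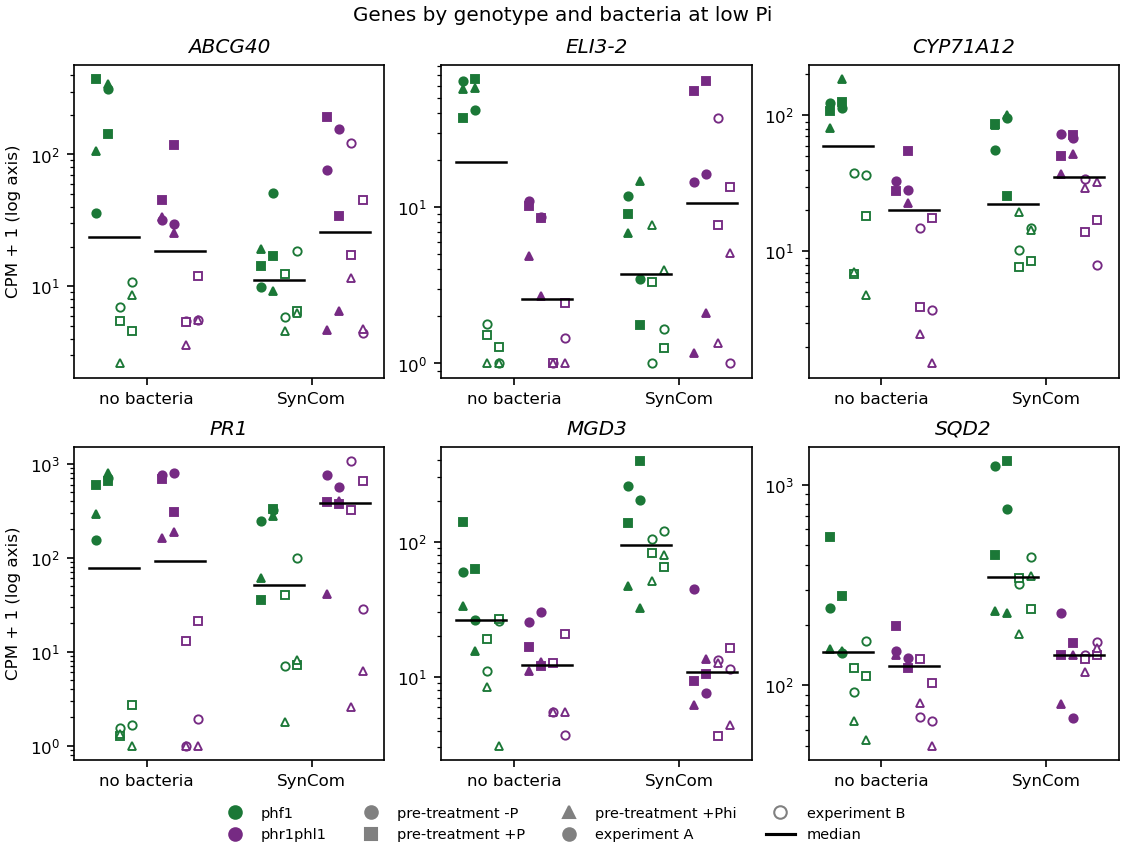
CPM plus 1 on a log axis for 6 genes in the 48 libraries, with colours, symbols and median lines for genotype, pre-treatment, experiment and each 12 libraries. ABCG40, ELI3-2 and CYP71A12 have the higher median in phf1 without bacteria and in phr1phl1 with SynCom, while MGD3 and SQD2 separate further with SynCom.

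**Figure D4:**
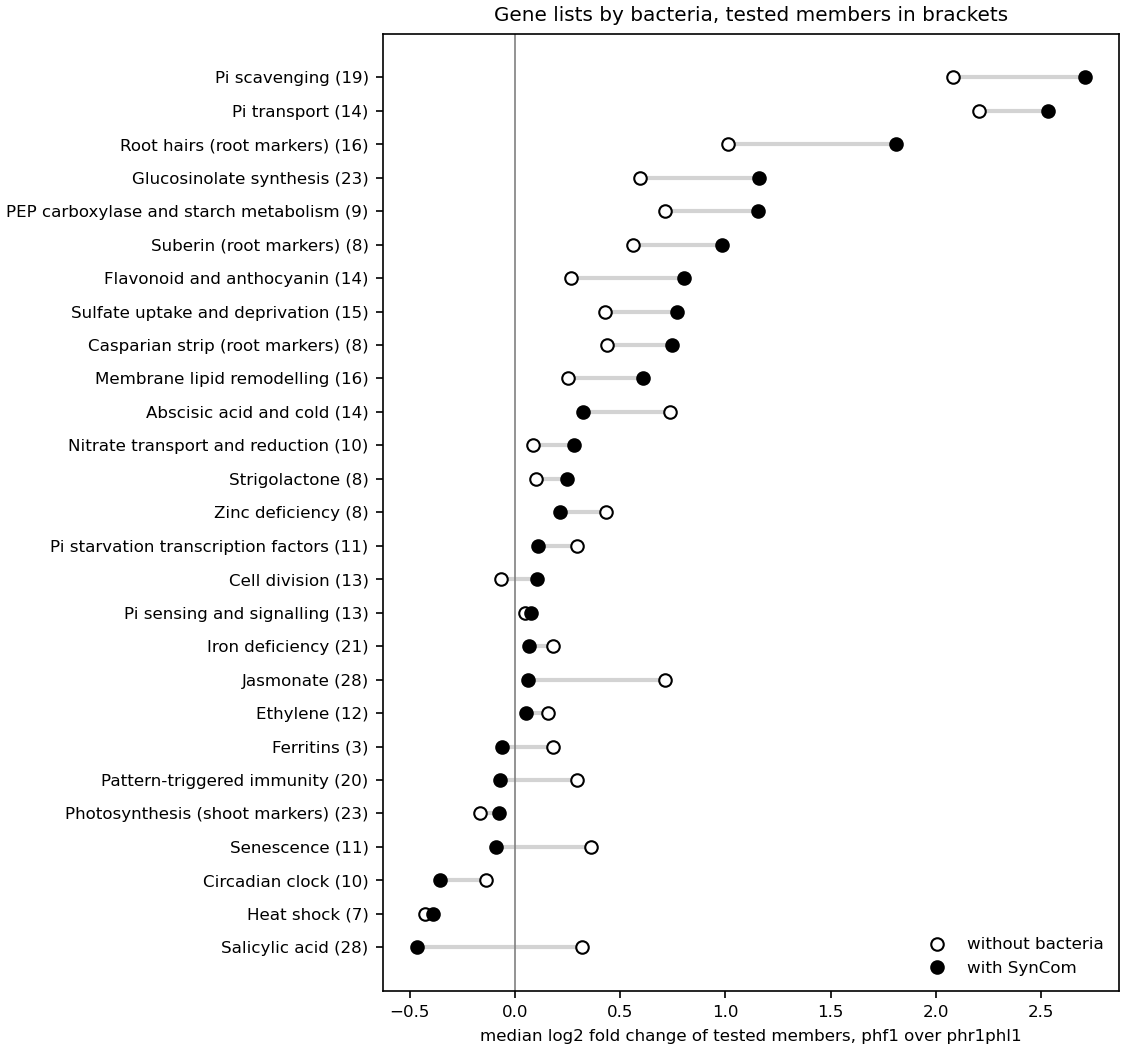
Median log2 fold change of phf1 over phr1phl1 over the tested members of each gene list, without bacteria (open) and with SynCom (filled), with the number tested in brackets. The salicylic acid list moves from 0.32 to -0.47, and the Pi scavenging list from 2.08 to 2.71.

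The genotypes were also compared within each pre-treatment. With 8 libraries of each genotype, 1219 genes were higher (6.53%) and 561 lower (3.01%) after -P. After +P 1907 were higher (10.2%) and 1489 lower (7.98%), and after +Phi 477 were higher (2.56%) and 90 lower (0.482%). No gene passed a test of the change between pre-treatments in edgeR's quasi-likelihood test, for +P against -P or +Phi against +P. Of 18668 genes tested, 659 and 1074 had an unadjusted p under 0.05, where chance alone gives a share of about 0.05. PHO2 differed by -2.7 after -P, -2.66 after +P and -2.76 after +Phi. AT4 differed by 2.99, 2.86 and 2.68 in that order, and SPX1 by 2.23, 2.1 and 2.01. Some genes named for a large change with bacteria held both signs. GSTU3 differed by -0.75, -1.92 and 3.03, ELI3-2 by 0.03, -1.14 and 3.37, and ABCG40 by -0.31, -1.01 and 1.39. JRG21 differed by -0.41, -1.88 and 1.22. None of these was called for a change between pre-treatments. Pi transport genes were called higher in 12, 13 and 10 of 14 cases, in the same order. Salicylic acid genes were called lower in 0, 6 and 0 of 28 and higher in 0, 0 and 3, with medians of -0.20, -0.46 and 0.62.

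The 2 experiments differed in their number of calls. Within A 3308 genes were higher in phf1 and 2899 lower (15.5%), and within B 1587 were higher and 1416 lower (7.59%). The genotype difference changed between experiments for 328 genes (1.76%). PHO2 was one of them, with a change of 0.81 ± 0.16 from A to B (adjusted p = 0.0131). NLA changed by 0.81 ± 0.18 (adjusted p = 0.0187) and IPS1 by -1.87 ± 0.51 (adjusted p = 0.0474), both nearer to 0 in B.

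The differences of 2 lipid genes had opposite signs in the experiments, and the test of that change called both. MGD2, a synthase of monogalactosyldiacylglycerol, differed by 0.68 in A and -0.54 in B, and its pooled value of 0.09 was not called (adjusted p = 0.765). SQD1, which makes the head group of sulfolipids, differed by 0.77 in A and -0.14 in B and was not called when pooled (adjusted p = 0.0599). The labels say that both experiments were independent, and any cause of their differences was not tested.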

How the data were processed

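Poly(A) RNA of whole seedlings was sequenced from non-stranded libraries, per the labels' protocols, so the strand of a transcript is not known from its reads. How reads of overlapping or antisense genes were counted is not stated. The authors deposited whole-number counts per gene, not normalised, 1 column per library, for 27206 genes. The submitters' processing notes name CASAVA 1.8, cutadapt 1.3, TopHat2 2.1.1, HTSeq 0.6.1p1 and build TAIR10, without saying how each was used.

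From these counts, 18668 genes passed the low-count filter (filterByExpr, minimum count 10, 12 groups). Libraries were scaled by TMM and fitted in edgeR 4.0.16 (R 4.3.3) with 12 blocks plus genotype, or genotype within bacteria, pre-treatment or experiment, adjusting by Benjamini-Hochberg over all genes tested. Precision is limited by totals of 720256 to 7710839 counts per library. Closest same-group libraries differed by more than counting noise (lowest chi-square per degree of freedom 1.33 over 72 pairs), so none was counted as a repeat. The labels call the replicates biological, without naming separate plants.

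The compared libraries, the 27 gene lists and the rule for named genes were chosen with earlier results of these data known, so they give no independent support. Named were the targeted genes and fixed markers, all members of the 4 Pi lists as eligible, up to 5 members of each other list, taken by smallest p, up to 10 genes per direction with the largest pooled difference (mean of at least 5 CPM, same sign in both experiments with and without bacteria) and up to 6 per direction with the largest change with bacteria. Not every eligible gene is given. Promoter windows were cut from the RefSeq genome TAIR10.1, and coordinates are of that assembly. Of the tested genes, 18655 matched its annotation by locus identifier. Alternatives used DESeq2 1.42.0, limma 3.58.1, other scalings, filters and blocks, all libraries of the study, single experiments, and fits leaving out libraries.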

Additional observations from a re-analysis of the deposited data

Results flagged for a closer look

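The genotype difference changed with SynCom, by the test of that change itself, for 24 of the 142 named genes examined, against 4.03% of all genes tested. Up to 6 genes per direction were named because this change was largest in them, so part of the count was fixed by the choice. In Pi and metabolic genes it became more positive, by 0.94 for AT5G15070 (a phosphoglycerate mutase-like protein in RefSeq), 2.53 for PAP14, 2.66 for PAP24, 1.99 for MGD3, 1.14 for SQD2, 2.07 for AT3G25790, 1.28 for PPC3 and 1.17 for PPCK2. It also became more positive by 1.0 for the sulfate transporter SULTR3;4, 1.41 for the sulfur-deprivation gene LSU2 and 0.90 for NRT2.1. Outside the lists it became more positive by 2.27 for AT1G64590, 2.22 for AT1G08165, 2.17 for AT3G19430 and 2.08 for AT5G14650.

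It became more negative by -1.86 for CYP71A12, -0.92 for SAG21, -1.95 for AT4G39675, -5.54 for GSTU3, -5.01 for AT1G09500, -4.08 for ELI3-2, -3.5 for AT2G38240, -3.38 for JRG21 and -3.27 for ABCG40.

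Between experiments, B minus A, the difference changed for 8 named genes: by 1.33 for PHL1, -1.87 for IPS1, 0.81 for PHO2, 0.81 for NLA, 0.72 for AT3G01310, -1.22 for MGD2, -0.91 for SQD1 and -1.54 for FLC.

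SPX1, PHO2 and PR1 were each checked in the 12 groups of 4 libraries compared here, which makes 36 checks. Of these, 5 found a library far from the rest of its group. The nominal rate of about 1 in 20 assumes 4 values from a single normal distribution. Each group joins 2 libraries from each experiment, so that rate is only a rough guide. SPX1 was low at 226 CPM in a phf1 library with SynCom after +Phi and high at 215 CPM in a phr1phl1 library with SynCom after -P, the shallowest of the 48. PHO2 was low at 85.4 CPM in a phf1 library with SynCom after +P. PR1 was high at 325 CPM in a phf1 library with SynCom after +P and at 402 CPM in a phr1phl1 library with SynCom after +Phi.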

How the results depend on the processing

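The pooled comparison gave 3461 calls when fitted on experiment B alone against 6441 in all. Calls without bacteria, 2116, were 1313 with additive blocks, 3860 with limma-voom, 1078 in experiment A, 901 in B, 1343 with all libraries of the study in the fit (the Col-0 library that went against its label included) and 1097 to 1399 when a replicate number was left out. Calls with SynCom, 6098, were 3736 in A and 3297 in B. The 752 changes with bacteria were 278 with additive blocks, 1513 with limma-voom, 20 in A, 466 in B, 452 with all libraries of the study and 74 to 373 when a replicate number was left out. The fit with all libraries of the study also entered experiment as an additive term, in place of the crossed blocks. Its 1343 and 452 calls therefore do not separate the added libraries from the changed model. The 328 changes between experiments were 552 at a minimum count of 50 and 504 with no filter. With windows of 1000 bases, chosen after seeing the data, the motif shares were 24.78% of genes called higher, 18.79% of genes called lower and 20.55% of all genes tested.

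In the main fit, replicate numbers were not treated as a pairing. The correlation of same-numbered phf1 and phr1phl1 libraries within 12 blocks averaged 0.0328. It was over 0.1 in 3 blocks and under -0.1 in 2. These values cannot exclude a weak pairing. With a replicate block the pooled calls were 5966, the changes with bacteria 391, calls after +Phi 341 instead of 567, and changes between experiments 146.

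Among named genes, the genotype difference over both bacteria levels turned sign in experiment B alone for AT3G01310 (0.0184), MGD2 (-0.56), SQD1 (-0.16) and CYP71A12 (-0.0246). For CYP71A12 this is not its change with bacteria. The change of PAP14 with bacteria also turned sign in B alone (-0.27). MGD2 was also negative with limma-voom (-0.00982) and without replicate A1 or A2, with a range of -0.17 to 0.31 when a replicate number was left out. Most losses of a call concerned changes with bacteria: those of MGD3 and SAG21 were not called in A alone or without replicate B1 or B2, and that of SQD2 without any one replicate number. PR1 with SynCom lost its call in A, under the replicate block and without B1 or B2. Without the shallowest library 154 of 157 named results kept their side of the threshold, 2 gained a call and the change of PPC3 with bacteria lost it. Depth limits genes under a few CPM, where 0 counts in the shallowest libraries say little.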
